A study of Mus musculus with 13 samples.

Results

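The region around Xylt1 was defined on mm9 as chr7:124450000-124880000, a stretch of 430 kb, and held 57 of the 45096 Sox9 peaks that the authors deposited for 2 mouse cartilages. A peak belonged to it when its centre lay inside, and the region was chosen with its peaks already known, so the counts and densities below describe it and are not tested. Of the 57 peaks, 34 came from the rib list of 27656 peaks and 23 from the nasal list of 17440. The rib sample was chondrocytes, the cells that make cartilage, freed by enzyme digestion from ribs of wild-type, untreated ICR mice at postnatal day 1. The nasal sample was chondrocytes freed in the same way from the nasal septum of wild-type, untreated ICR mice at embryonic day 17.5. Each tissue had 1 Sox9 ChIP-seq library made with the same Millipore antibody (AB5535), so no replicate check was possible, and tissue and stage differ together. The authors also deposited the rib peaks divided into Class II, with 20862 peaks, and Class I, with 6794. The lists give positions alone, so the reads behind a peak and its height are unknown, and the labelled cell type could not be checked against marker genes.

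Xylt1 encodes a xylosyltransferase of the Golgi. It adds xylose to serine residues of proteoglycan core proteins, the first step in building the linker on which chondroitin sulfate and heparan sulfate chains grow, and so it acts on aggrecan, the main proteoglycan of cartilage. Loss of its function in mice gives short limbs with early maturation of chondrocytes, and in humans a skeletal dysplasia of the Desbuquois group. Sox9 is an HMG-box transcription factor required for cartilage to arise and for chondrocytes to express collagen II and aggrecan. The files name no gene at these peaks. The gene's span was taken as about 124524000 to 124811000 on mm9, rounded to 1 kb, a length of 287 kb. In the RefSeq table of GRCm38.p6 the gene (ID 233781) is 286.7 kb long, and its protein-coding neighbours are Nucb2 and Rps15a. Exons, introns and the direction of transcription were not mapped onto the peaks, and positions are given below as kb from the low-coordinate end of that span.

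In both tissues the Sox9 peaks inside the gene lay mostly from 32.0 to 207 kb, and nearly all of the rib peaks were Class II. Of the 34 rib peaks, 33 were Class II, or 97.1% (95% exact binomial interval 84.7% to 99.9%), beside 75.4% of the whole rib list. All 30 rib peaks inside the gene span were Class II, and 19 nasal peaks lay inside it as well. Outside the span the rib list had 4 peaks and the nasal list 4, with 3 of each before the gene and 1 of each after it. The single Class I peak stood at the low-coordinate end of the gene. The rule by which the authors drew the classes is not in the sources used here. Intervals in the text cover counting error alone and treat neighbouring peaks as independent, which they need not be.

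**Figure D1:**
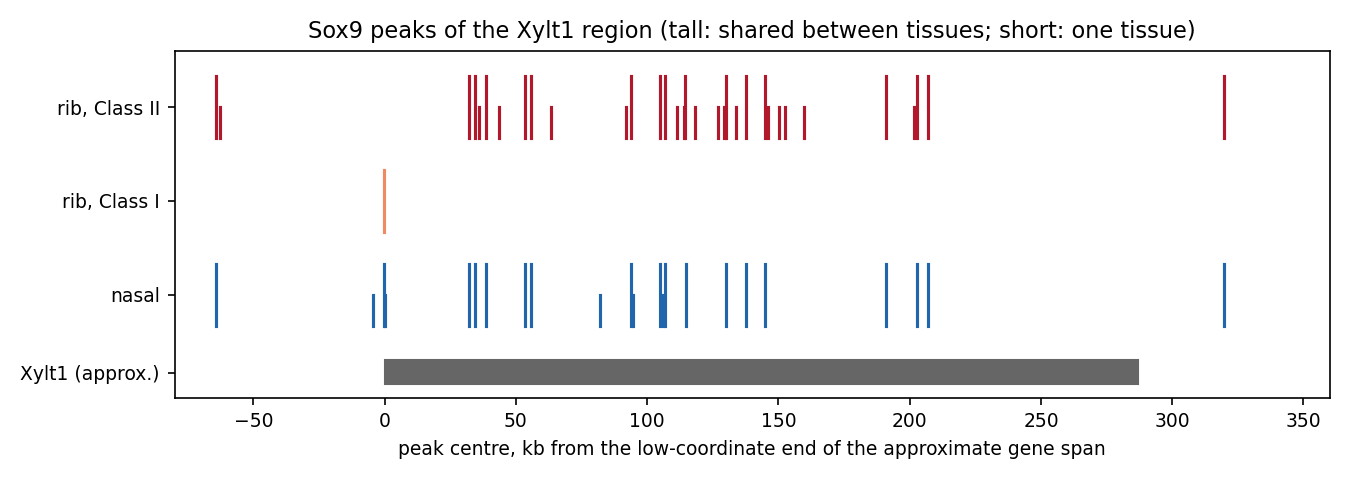
Positions of the Sox9 peaks of the Xylt1 region, as peak centres in kb from the low-coordinate end of the approximate gene span (grey bar, 287 kb), with 1 row each for rib Class II, rib Class I and nasal peaks. Tall lines are peaks that share at least 1 bp with a peak of the other tissue, and short lines are peaks that do not; the 30 Class II peaks inside the gene lie from 32.0 to 207 kb, and the Class I peak stands at its low-coordinate end.

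The region was among the fullest of its size. Windows of 430 kb were tiled over the chromosomes, from the region's own start on chromosome 7. The region's 34 rib peaks, a density of 79.1 per Mb, compare with a median of 2 in the other 6137 windows and a 95th percentile of 16. Of those windows, 11 held at least as many rib peaks, or 0.179%, and 2008 held none. The tiling was fixed, so a cluster elsewhere may be divided between neighbouring windows, while the region was chosen with its peaks known. For Class II alone the region's 33 peaks had rank 5, level with 2 others. Its 23 nasal peaks, 53.5 per Mb, compare with a median of 1 and a 95th percentile of 11, and 13 windows, or 0.212%, held at least as many. The single Class I peak is near the mean of 1.11 per window elsewhere. The ratio of rib to nasal peaks was 1.48 in the region and 1.59 over the whole lists.

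**Figure D2:**
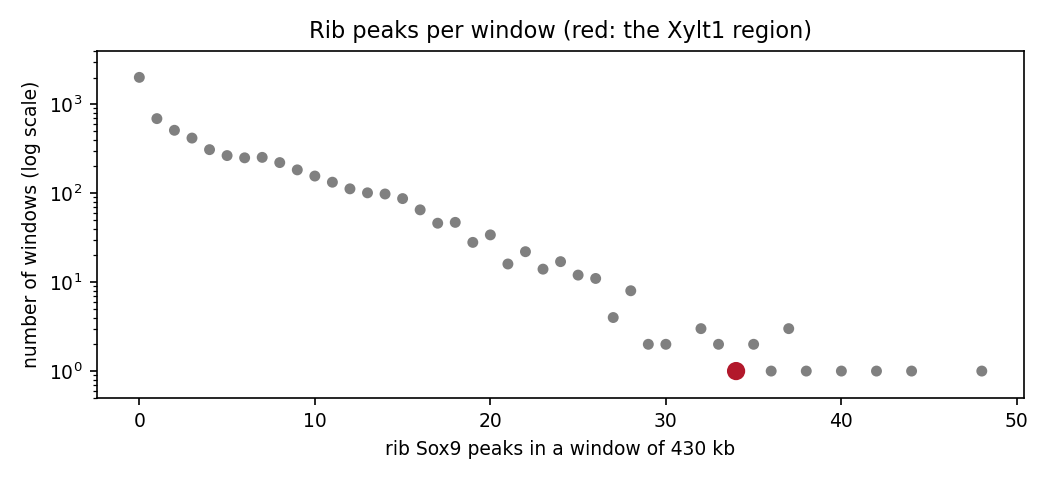
Number of windows of 430 kb (vertical axis, log scale) by the number of rib Sox9 peaks they hold (horizontal axis); each point is 1 count of peaks. The red point is the Xylt1 region with 34 peaks, and the fullest window held 48.

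Peaks near the low-coordinate end of the gene included the only Class I peak and 3 nasal peaks. The Class I peak, chr7:124523630-124523843, had its centre 0.264 kb before the end as rounded here and stood at place 3023 of the rib list. A nasal peak, chr7:124523812-124523949, shared 32 bp with it, at place 3959 of the nasal list. A further nasal peak, chr7:124523979-124524169, followed 29 bp after it and lay 135 bp from the Class I peak without touching it. The last of the 3 nasal peaks, chr7:124519466-124519621, lay 4.46 kb before the low-coordinate end of the gene and 4.01 kb from the nearest rib peak. No Class II peak lay within 5 kb of that end, and no peak of either tissue within 5 kb of the other end. The edge of the gene span is known to 1 kb only, so whether any of these peaks covers a transcription start was not tested.

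The density of peaks was greatest in the middle part of the gene. Between 100 and 150 kb from the low-coordinate end stood 13 rib peaks and 7 nasal peaks, and 6 of each were shared. The next fullest stretches of 50 kb, from 0 to 50 and from 50 to 100 kb, held 5 rib peaks each, with 4 and 5 nasal peaks. From 150 to 200 kb there were 4 rib peaks and 1 nasal peak. From 200 to 250 kb there were 3 rib peaks and 2 nasal peaks. Between 250 and 300 kb neither list had a peak. Both lists had their largest gap there, 113 kb long, between peaks at 207 and 320 kb.

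Most of the peaks formed chains, here runs of at least 3 peaks of a list with gaps of at most 10 kb. In the rib list 27 of the 34 peaks were in 3 chains, or 79.4% (95% exact binomial interval 62.1% to 91.3%), beside 28.3% of all rib peaks. In the nasal list 15 of the 23 were in 4 chains, or 65.2% (42.7% to 83.6%), beside 19.1% of all nasal peaks. With gaps of at most 5 kb, 9 of the 23 nasal peaks were in chains, or 39.1%, beside 11.0% of all nasal peaks. The longest rib chain held 16 peaks, all Class II, over 55.1 kb, from 105 to 160 kb inside the gene. Of the 18383 runs into which the rib list divides, counting lone peaks, it had rank 3 by number of peaks, level with 1 other. That rank depended on the gap allowed. With gaps of at most 5 kb the longest rib chain of the region held 6 peaks over 13.7 kb and had rank 44, a size that 37 chains of the list shared, and with gaps of at most 25 kb it held 18 peaks and had rank 20. A rib chain of 8 peaks lay over 31.6 kb from 32.0 to 63.5 kb, and a chain of 3 ran from 202 to 207 kb. With gaps of at most 10 kb the nasal peaks at these places were divided into shorter runs. The longest held 6 peaks over 21.0 kb, from 93.9 to 115 kb, and had rank 35 in the nasal list. With gaps of at most 25 kb the longest nasal chain held 10 peaks over 63.1 kb, beside 67.9 kb for the rib chain of 18. Because the region was chosen for its dense peaks, a high share in chains follows in part from the choice.

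Rib and nasal peaks of the region coincided at 18 places. Nasal peaks shared at least 1 bp with 18 of the 34 rib peaks, or 52.9% (95% exact binomial interval 35.1% to 70.2%), beside 42.8% of all rib peaks. Of the 33 Class II peaks 17 were shared, or 51.5% (33.5% to 69.2%), beside 34.4% of all Class II peaks. Of the 23 nasal peaks 18 were shared with a rib peak, or 78.3% (56.3% to 92.5%), beside 68.2% of all nasal peaks. With a Class II peak 17 of the 23 were shared, or 73.9% (51.6% to 89.8%), beside 41.2% of all nasal peaks. As 33 of the 34 rib peaks were Class II, nearly every shared nasal peak of the region had to meet Class II. The only Class I peak of the region was shared, beside 68.8% of all Class I peaks. The 57 peaks thus marked 39 places, of which 18 were in both tissues, 16 in rib alone and 5 in nasal septum alone. Each shared rib peak met a single nasal peak.

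Class II peaks stood early in the rib list where they were shared. The lists carry no score, and the meaning of their order is not stated in the sources used here, so a place is given as a percent of the list's length. The median place of the 17 shared Class II peaks was 8.28% of the rib list, with a range from 0.0940% to 50.6%, beside 21.3% for all shared Class II peaks. The 16 Class II peaks that were not shared had a median of 54.4%, with a range from 7.78% to 96.0%, beside 57.9% for all such peaks. These ranges overlapped. In the first 10% of the rib list stood 11 of the 33 Class II peaks, or 33.3% (95% exact binomial interval 18.0% to 51.8%), beside 12.2% of all Class II peaks, and 1 other window of 430 kb, or 0.0163%, held at least as many rib peaks from there. Of these 11 peaks 10 were shared with nasal septum, or 90.9%, beside 81.1% of all Class II peaks in that part of the list. The exception, chr7:124676599-124676790, was at place 2151 and lay 7.53 kb from the nearest nasal peak.

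**Figure D3:**
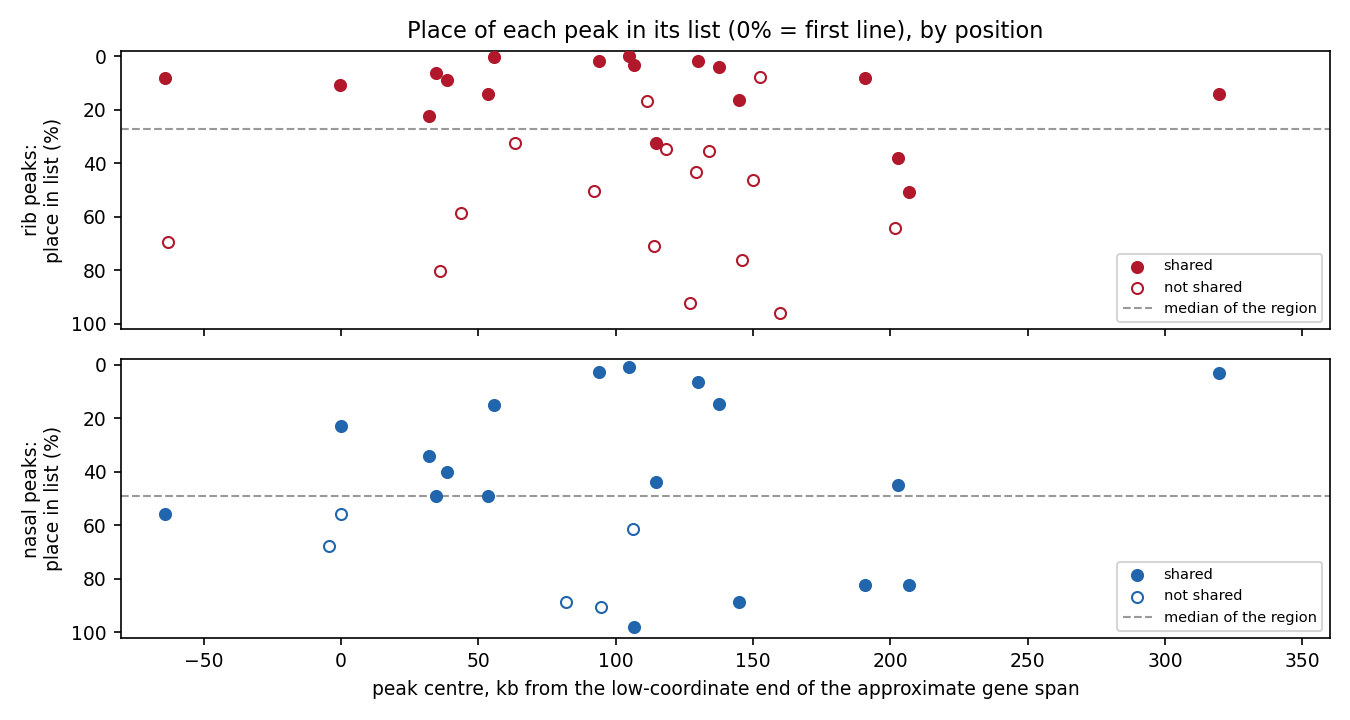
Place of each peak in its own list, as a percent of the list's length with the first line at the top (vertical axis), by position in kb from the low-coordinate end of the gene span (horizontal axis), for rib peaks above and nasal peaks below. Filled points share at least 1 bp with the other tissue, open points do not, and dashed lines mark the medians, 27.3% for the 34 rib peaks and 49.2% for the 23 nasal peaks.

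The share of peaks in both tissues went with place in each list. In the first 50% of the rib list, 16 of 23 Class II peaks were shared, or 69.6% (95% exact binomial interval 47.1% to 86.8%), beside 50.4% over the list. In the last 50%, 1 of 10 was shared, or 10.0% (0.253% to 44.5%), beside 15.4%. In the first 50% of the nasal list, all 13 peaks of the region were shared (75.3% to 100%), beside 82.4% over the list. In its last 50%, 5 of 10 were shared, or 50.0% (18.7% to 81.3%), beside 54.1%. Had the 33 Class II peaks been shared at the rates of all Class II peaks in the same 10% steps of the rib list, 15.6 would have been, beside the 17 observed. The same reckoning for the nasal peaks gave 15.9, beside the 18 observed. The first of these numbers is 47.1% of the 33 peaks, which lies between the 51.5% of the region and the 34.4% of all Class II peaks.

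**Figure D4:**
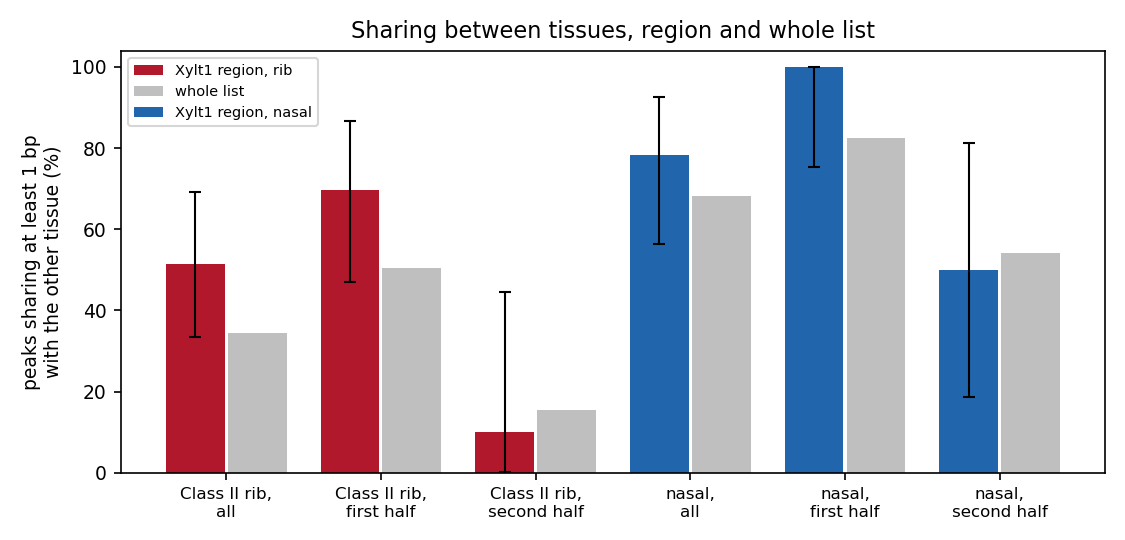
Percent of peaks that share at least 1 bp with a peak of the other tissue (vertical axis), for Class II rib peaks (red) and nasal peaks (blue) of the Xylt1 region and for the whole list (grey), over all places and over the first and the last 50% of the list by place. Error bars are 95% exact binomial intervals; the bars of the region are higher in the first 50% of either list, at 69.6% and 100%, than in the last 50%, at 10.0% and 50.0%.

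The peaks that stood first in both lists coincided inside the gene. The rib peak chr7:124628682-124628877, 105 kb from the low-coordinate end, was at place 26 of the rib list, the earliest of the region. It shared 167 bp with the nasal peak chr7:124628711-124628883 at place 168 of the nasal list, the earliest nasal peak of the region. At 93.9 kb the rib peak chr7:124617857-124618018, place 488, shared 155 bp with chr7:124617864-124618025, place 477 in the nasal list. At 130 kb the rib peak chr7:124653855-124654009, place 466, shared 118 bp with chr7:124653807-124653972, place 1113 in the nasal list. These 3 rib peaks stood within the first 1.76% of their list and the 3 nasal peaks within the first 6.38% of theirs.

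The rib peaks at 55.8, 107 and 138 kb also stood early, but their nasal partners stood farther down the nasal list than those just named. The rib peak at 55.8 kb, chr7:124579636-124579941, was at place 139 of the rib list, and its nasal partner chr7:124579761-124579899 was at place 2604, with all 139 bp of the nasal peak inside the rib peak. At 107 kb, chr7:124630730-124630962 was at place 904, number 5 among the region's rib peaks, and shared 204 bp with chr7:124630698-124630933, which at place 17095 was the last of the region's nasal peaks. At 138 kb, chr7:124661350-124661583 was at place 1101 and shared 53 bp with chr7:124661531-124661653 at place 2583. The pair beyond the high-coordinate end of the gene, at 320 kb, had the opposite order. There the rib peak chr7:124843747-124843908 stood at place 3877 and was covered whole by the nasal peak chr7:124843711-124843912, which at place 556 was among the first 5 nasal peaks of the region.

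Another 4 shared places lay inside the gene between 32.0 and 53.4 kb, and 1 lay before it. The rib peaks were chr7:124555940-124556098 at place 6147, chr7:124558392-124558567 at place 1749, chr7:124562447-124562624 at place 2440 and chr7:124577307-124577550 at place 3886. Their nasal partners were chr7:124556008-124556117 at place 5925, chr7:124558418-124558530 at place 8588, chr7:124562454-124562672 at place 6981 and chr7:124577308-124577488 at place 8587. These 4 pairs shared 91, 113, 171 and 181 bp in the order given. The pair outside lay 64.1 kb before the gene, with the rib peak chr7:124459865-124460004 at place 2241 covered whole by the nasal peak chr7:124459838-124460054 at place 9693.

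The remaining 5 shared places lay between 115 and 207 kb and included the narrowest rib peak. At 115 kb the narrowest rib peak of the region, chr7:124638618-124638656 with 39 bp, was at place 8943 and shared 23 bp with chr7:124638634-124638878 at place 7630. At 145 kb, chr7:124668759-124668924 at place 4553 shared 146 bp with chr7:124668779-124669069 at place 15460. At 191 kb, chr7:124714785-124714947 at place 2291 shared 144 bp with chr7:124714776-124714928 at place 14375. At 203 kb, chr7:124726584-124726776 at place 10493 shared 116 bp with chr7:124726661-124726908 at place 7865. At 207 kb, chr7:124730720-124730849 at place 13989 shared 107 bp with chr7:124730743-124730922 at place 14374.

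In 17 of the 18 pairs the rib peak stood at the lower percent of its list, beside 56% of all shared pairs. Over the lists the share differed by class, at 75.8% of Class II pairs and 26.1% of Class I pairs. In the region it was so for 16 of 17 Class II pairs and for the only Class I pair. The exception was the pair beyond the high-coordinate end, at 14.0% of the rib list and 3.19% of the nasal list. The widest difference was that of the pair at 107 kb, at 3.27% of the rib list and 98.0% of the nasal list. The lists differ in length and in the libraries behind them, so these places say nothing of the amount of Sox9 in either tissue.

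**Figure D5:**
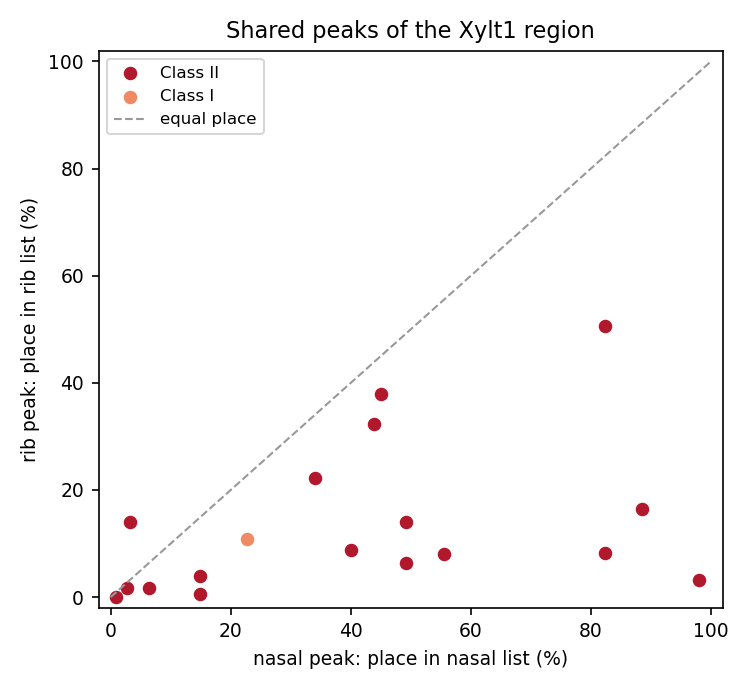
Place of the rib peak in the rib list (vertical axis) against place of its nasal partner in the nasal list (horizontal axis), each as a percent of the list's length, for the 18 shared places of the Xylt1 region. The dashed line marks equal places; 17 points lie below it and 1 above it.

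The centres of the 18 pairs were a median of 36 bp apart, with a range from 5.5 to 144 bp, and the median over all pairs of the lists was also 36 bp. Sharing a base already holds the centres of peaks this narrow close together. In 13 pairs they were within 50 bp, beside 62.2% of all pairs. The bases shared ranged from 23 to 204 bp with a median of 139.5, and 2 pairs shared under 50 bp, the narrow rib peak at 115 kb and the Class I pair. In width, the 34 rib peaks had a median of 174 bp and ranged from 39 to 331 bp, and the 23 nasal peaks had a median of 173 bp and ranged from 57 to 291 bp, beside medians of 180 and 182 bp over the rib and nasal lists.

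The 16 rib peaks without a nasal partner were all Class II, as the only Class I peak was shared, and lay mostly among the shared ones. Their gap to the nearest nasal peak had a median of 2.92 kb and ranged from 0.646 to 14.4 kb, and for 4 of them it was at most 1 kb. The longest stretch without a nasal peak inside the dense part held 4 of them, at 146, 150, 153 and 160 kb. The last of these, chr7:124683495-124683825, was the widest rib peak of the region with 331 bp, stood at place 26547 and lay farthest from a nasal peak. The 5 nasal peaks without a rib partner stood at a median of 67.6% of the nasal list, with a range from 55.6% to 90.5%, beside a median of 69.4% for all nasal peaks without one. Besides the nasal peaks before and at the low-coordinate end of the gene, they were at 82.0, 94.8 and 106 kb. For 3 of the 5 a rib peak lay within 1 kb. Counting gaps of up to 1 kb as shared, 64.7% of the rib and 91.3% of the nasal peaks of the region had a partner. Over the whole lists 49.9% and 78.1% did. Because the region was chosen for its dense peaks, small gaps follow in part from the choice.

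Shared peaks also stood just beyond both edges of the region. Just inside the low edge stood the pair 9.93 kb from it, and just outside stood a Class II peak 2.57 kb from it, chr7:124447353-124447508 at place 8197, covered by the nasal peak chr7:124447284-124447527 at place 9694. At the high edge the pair beyond the gene stood 36.2 kb inside. A Class II peak, chr7:124882530-124882725 at place 2722, and a nasal peak within it, chr7:124882540-124882706 at place 13249, stood 2.63 and 2.62 kb outside.

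The windows most like the region in their numbers of Class II, Class I and nasal peaks lay on chromosomes 1 and 17. The nearest, at chr1:92450001-92880000, held 34 Class II, 6 Class I and 23 nasal peaks. In the Xylt1 region 52.9% of the rib peaks were shared, and in that window 52.5%. The next, at chr17:84280001-84710000, held 33 Class II, 2 Class I and 17 nasal peaks, with 42.9% of its rib peaks shared. The last, at chr17:45580001-46010000, held 31 Class II, 6 Class I and 21 nasal peaks, with 43.2% shared. Genes in these windows were not looked up, as the annotation used is on another build, and other enzymes of the linker and of chondroitin sulfate chains were not analysed here for the same reason.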

How the data were processed

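Sox9 ChIP-seq of rib and nasal septum chondrocytes was analysed from peak lists. Per the labels' protocols, cells were fixed in 1% formaldehyde for 10 minutes, 20000000 cells entered each immunoprecipitation, and library PCR ran for 18 cycles. The authors deposited 4 lists as chromosome, start and end, with no score; 1 Class I line, outside the region, carries further fields that were not used. Positions are on mm9, per the submitters' processing notes. Each list's name carries the tags 2s and FDR1, and that of the whole rib list, but not of the nasal list, the word Unfiltered. What these tags stand for, the aligner, the peak caller, its control library and the meaning of the classes are not given in any source used here. Of the 13 libraries, 11 were not used here, the inputs and the IgG control among them, and no control library was analysed. The depth is unknown.

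From the lists, 1 was added to each start, overlap meant at least 1 shared bp, and shares have 95% exact (Clopper-Pearson) intervals. No test was run, as each tissue had 1 library and the region and lists were chosen with earlier results of these data known. Named were all shared peaks, the first 5 of each list in the region, the widest and narrowest rib peak, peaks within 5 kb of either end of the gene and the 3 windows nearest in peak numbers. The peaks at the edges, the rib peak of the first 10% without a partner and the nasal peaks and rib peaks without a partner at given positions were named after their values were seen. Alternatives were the gene span alone, the first 50% of each list by place, other overlap rules, chain gaps and windows. Other gaps for the nasal chains and for the rank of the longest rib chain were added after seeing the data. Overlaps were checked on simulated lists and differed from bedtools 2.31.1 for 0 of 27656 rib and 0 of 17440 nasal peaks. Python 3.11.15, numpy 2.4.6, scipy 1.17.1 and matplotlib 3.10.9 were used. Peak sequences need an mm9 genome and are not shown.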

Additional observations from a re-analysis of the deposited data

How the results depend on the processing

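Of 31 recomputed values, 20 stayed within 1.5 times the reported count or inside its interval. The intervals are wide, so staying inside one is a loose criterion. The nasal share counted as inside its interval of 56.3% to 92.5% when it fell from 78.3% to 56.5%. With the first 50% of each list by place, the nasal peaks of the region numbered 13 and 100% of them were shared with rib peaks, and the region ranked 4 by rib peaks in place of 12. That setting removes the later peaks of both lists, partners among them. With it 13 of 24 rib peaks were shared, or 54.2%, beside 52.9% with the full lists. Shares over the whole lists at that setting are not given here. The gene span alone left out the only Class I peak, so that the Class II share was 100%. With gaps of up to 25 kb, 94.1% of the rib peaks and 91.3% of the nasal peaks of the region were in chains, beside 52.5% and 39.2% of the whole lists, and the longest rib chain had rank 20. With gaps of up to 5 kb, 67.6% and 39.1% were, beside 15.6% and 11.0%, and it had rank 44. The region ranked 5 by Class II peaks. Of fixed windows of 100 kb tiled over the chromosomes, the fullest inside the region, with 18 rib peaks, ranked 4 of 26349. A window of that size placed freely in the region could hold more. With an overlap of at least 50% required of each peak, 38.2% of the rib peaks and 56.5% of the nasal peaks of the region were shared, beside 28.4% and 45.1% of the whole lists. With gaps of up to 1 kb the shares were 64.7% and 91.3%, beside 49.9% and 78.1%. No paired analysis was possible because each group had a single library. With no reads or scores, a weak peak cannot be told from a strong one, and a place without a peak may hold signal below the authors' threshold.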

Other observations

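Some peaks of the region stood on consecutive lines of the lists. In the rib list 1 pair of consecutive lines consisted of peaks of the Xylt1 region, the shared peak at 115 kb and the peak without a partner at 63.5 kb, at places 8943 and 8944. In the nasal list 3 such pairs did, at places 8587 and 8588, 9692 and 9693, and 14374 and 14375, and the line after the middle pair, place 9694, was the nasal peak just outside the low edge. Over the whole lists, 2.76% of consecutive rib lines and 3.26% of consecutive nasal lines held peaks of the same chromosome within 430 kb of each other. Of these, 147 of 764 in the rib list and 149 of 568 in the nasal list stood in the first 50% of the list. Whether lines with equal values were ordered by position was not tested.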
